A study of Mus musculus with 2 samples.

Results

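The 10 genes described here mark the subtypes of fibroblasts in pancreatic tumors: Acta2, Tagln and Postn for myofibroblasts, Pdgfra, Cxcl12 and Il6 for inflammatory fibroblasts, and Fap, Fn1, Dcn and Lum for fibroblast surface and matrix more broadly. They were taken by symbol from the 19465 features that both count matrices list, and all 10 were found. The collagen genes were left out of the set and served only to choose fibroblast-rich tissue. Spatial transcriptomics gave 1 KPC-shZEB1-labelled and 1 KPC-shV-labelled library. KPC is a mouse pancreatic cancer cell line, KPC-shZEB1 carries a short hairpin RNA against the transcription factor ZEB1, and KPC-shV carries the control vector. The tumors were allografts of this single line grown in the pancreas of mice. The mice had been given gemcitabine according to the paper's text, and the labels name neither drug nor strain nor age. The protocol names 2 tumors per group, and the sources used here do not say which tumor a library covers.

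In pancreatic cancer, fibroblasts and the matrix they lay down make up much of the tumor mass. Myofibroblasts lie close to cancer cells, carry contractile proteins and are driven by TGF-β, whereas inflammatory fibroblasts lie farther away and secrete cytokines and chemokines such as IL-6 and CXCL12. Several genes of both programs are not restricted to fibroblasts, since smooth muscle and pericytes carry contractile genes and cancer cells that have undergone an epithelial to mesenchymal transition make fibronectin.

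On Visium CytAssist slides, RNA-binding probes pass from the section onto barcoded spots, each of which reads a patch of tissue with several cells, often of more than 1 type. The KPC-shZEB1-labelled library held 140493626 unique molecular identifiers (UMIs) in 2220 spots, and the KPC-shV-labelled one held 172059528 UMIs in 3552 spots. Of these spots, 34.6% and 7.94%, respectively, were acinar-rich, with over 20% of their UMIs from genes of digestive enzymes. The targeted gene, Zeb1, stood at 10.8 and 12.4 UMIs per 1000000 UMIs (CPM) over all spots, at 15.5 and 12.7 CPM outside acinar-rich spots, and at 23.1 and 19.1 CPM in fibroblast-rich spots. Zeb1 was thus lower in the KPC-shZEB1-labelled library over all spots but higher in the spots outside acinar-rich tissue, against the label, and the libraries are called by their labels throughout. Because spots mix cell types, these levels do not give Zeb1 in the cancer cells that carry the hairpin. The libraries shared 1718 spot barcodes, which name positions on the slide.

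A level was the share of a gene in all UMIs of a set of spots, in CPM, and differences between the libraries are given as log2 ratios, with KPC-shZEB1 in the numerator. Because each group had a single library, nothing could be tested. The 95% intervals, exact Poisson for levels and exact conditional binomial for ratios, cover counting error only. A gene was called when its ratio was at least 2-fold, that is 1 on the log2 scale. In a spot, fewer cells of a type and less RNA per cell cannot be told apart. Fibroblast-rich spots were those outside acinar-rich tissue whose summed level of Col1a1, Col1a2 and Col3a1 lay in the upper 25% of both libraries pooled, at or above 11066 CPM. There were 411 such spots labelled KPC-shZEB1 (18.5% of all spots) and 770 labelled KPC-shV (21.7%), and the remaining tissue outside acinar-rich spots, 1041 and 2500 spots, is called other tumor spots.

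RefSeq promoter windows on GRCm38.p6 were matched for 5 of the 10 genes, Acta2, Postn, Pdgfra, Cxcl12 and Il6. The 250 bases before the RefSeq start are shown for the 3 inflammatory genes, which are set against the myofibroblast genes below, all on the plus strand at chr5:30012864-30013113 (Il6), chr5:75152001-75152250 (Pdgfra) and chr6:117168285-117168534 (Cxcl12). Capitals mark matches to the motifs searched on both strands.
Il6: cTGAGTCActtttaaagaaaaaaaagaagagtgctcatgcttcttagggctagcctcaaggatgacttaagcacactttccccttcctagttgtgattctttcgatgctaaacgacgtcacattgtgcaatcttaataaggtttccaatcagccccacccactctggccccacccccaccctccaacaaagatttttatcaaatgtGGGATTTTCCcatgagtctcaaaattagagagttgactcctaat
Pdgfra: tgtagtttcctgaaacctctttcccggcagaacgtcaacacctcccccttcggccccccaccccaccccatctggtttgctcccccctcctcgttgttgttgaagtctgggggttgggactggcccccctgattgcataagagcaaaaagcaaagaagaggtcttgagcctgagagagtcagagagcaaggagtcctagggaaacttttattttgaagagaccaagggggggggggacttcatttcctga
Cxcl12: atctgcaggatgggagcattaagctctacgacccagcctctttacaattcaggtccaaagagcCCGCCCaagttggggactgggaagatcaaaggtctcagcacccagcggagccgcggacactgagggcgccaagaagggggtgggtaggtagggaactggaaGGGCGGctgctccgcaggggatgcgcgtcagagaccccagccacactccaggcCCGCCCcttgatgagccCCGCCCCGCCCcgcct

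The Il6 window held a match to the kB consensus, the motif of the NF-kB factors, beginning 44 bases before the start, and a TGANTCA match, the motif of AP-1, beginning 249 bases before it. Among 32851 RefSeq windows of the same length, 7.25% held the kB consensus and 6.75% held TGANTCA. In the Cxcl12 window there were 5 matches to GGGCGG or its reverse complement, a letter run found in 32.7% of the windows, and the Pdgfra window held none of the 5 motifs searched. CACCTG, the E-box letters that ZEB1 is known to bind, were found in 0 of the 6 windows of the 5 genes and in 17.2% of all windows. Of the windows not shown, 1 of Postn held TATAAA 26 bases before its start, as did 12.4% of all windows at any place. In the Cxcl12 window the matches beginning 16 and 11 bases before the start share 1 base, and no other matches overlap.

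Over the whole sections, the myofibroblast genes and fibronectin were lower in the KPC-shZEB1-labelled library, whereas decorin, lumican, Fap and Pdgfra were higher. Tagln, which encodes the actin-binding protein transgelin (chr9:45929619-45936058, GRCm38), stood at 109 CPM against 219 CPM (log2 ratio -1.02, 95% interval -1.04 to -0.99). Fn1, which encodes fibronectin (chr1:71585520-71653200), stood at 1195 CPM against 2468 CPM (-1.05, interval -1.05 to -1.04). These were the 2 genes of 10 called lower, where 8.2% of 19011 genes were called lower, and 0 were called higher, where 2.08% were. The median gene stood at -0.48 in this comparison, so that relative to it Tagln stood at -0.54 and Fn1 at -0.57. Acta2, which encodes smooth muscle α-actin (chr19:34241090-34255590), measured 139 and 169 CPM, and Postn, the matricellular protein periostin (chr3:54361109-54391037), 24.9 and 38.9 CPM, with log2 ratios of -0.28 and -0.64. The direction of Acta2 depended on the scaling, since it stood at 0.12 with acinar genes out of the total and at 0.20 with median-of-ratios scaling, under which the typical gene is set equal in both libraries.

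Dcn and Lum encode decorin and lumican, small leucine-rich proteoglycans that bind collagen fibrils, and lie next to each other on the plus strand of chromosome 10 (chr10:97479609-97518143 and chr10:97565128-97572703), 46984 bases apart. Over all spots, Dcn measured 164 CPM in the KPC-shZEB1-labelled library and 93.1 CPM in the KPC-shV-labelled one (log2 ratio 0.82, 0.79 to 0.85). Lum measured 80.6 and 54.3 CPM (0.57). Fap, a surface serine protease of activated fibroblasts (chr2:62500943-62574075), measured 18.95 and 13.3 CPM (0.51). Pdgfra, a receptor for platelet-derived growth factors (chr5:75152292-75198215), measured 35.1 and 22.2 CPM (0.66). These 4 genes were thus higher in the KPC-shZEB1-labelled library by 1.42-fold to 1.77-fold, and they kept that direction under all 8 other settings tried over all spots. Among these settings, a minimum on the genes and UMIs of a spot left the 4 ratios as printed here. It could hardly have changed a direction. The sizes were less steady. With the mean over spots of their CPM, Dcn stood at 0.19, Lum at 0.28, Pdgfra at 0.24 and Fap at 0.52.

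The secreted inflammatory genes were not called over all spots. Cxcl12, a chemokine that holds and attracts leukocytes through CXCR4 (chr6:117168535-117181367), measured 18.7 and 16.7 CPM (log2 ratio 0.16, 0.08 to 0.24). Its ratio depended on the scaling. It was 0.64 with median-of-ratios scaling, 0.56 with acinar genes out of the total and -0.31 with the mean over spots of their CPM. Il6, the cytokine interleukin 6 (chr5:30013114-30019981), rested on 296 and 474 UMIs, or 2.11 and 2.75 CPM (-0.39, -0.60 to -0.17). Of 12 genes of retina, olfactory neurons, testis and brain that these tumors should lack, the highest, Omp, stood at 3.60 and 8.08 CPM, and the next, Gnat1, at 1.42 and 1.73 CPM. The level of Il6 over all spots lay below Omp alone of those genes and above Gnat1 in both libraries. Outside acinar-rich tissue, 26.3% and 31.6% of spots had an Omp UMI, and 10.3% and 8.13% had one of Gnat1. Omp is thus an uncertain background, and no order of the libraries is read from Il6 over all spots.

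**Figure D1:**
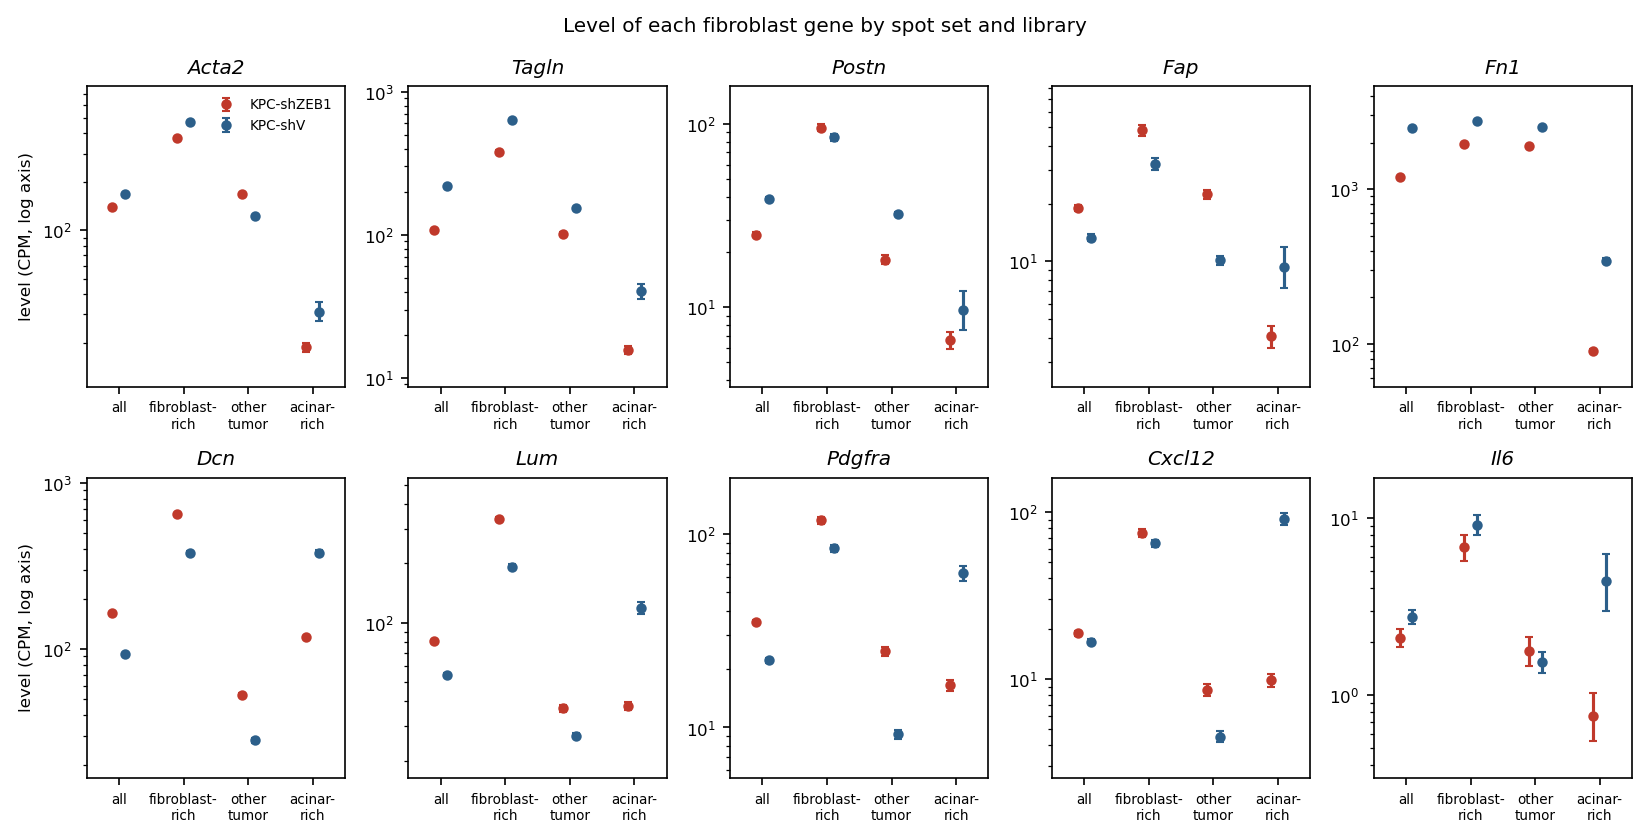
Level of each gene in CPM (log axis, 1 panel per gene with its own scale) in all spots, fibroblast-rich spots, other tumor spots and acinar-rich spots. Points are the libraries labelled KPC-shZEB1 (red) and KPC-shV (blue), and bars are exact Poisson intervals for counting error. Fn1 sits at about 1 level in fibroblast-rich and other tumor spots, at 1968 and 1896 CPM in the KPC-shZEB1-labelled library, whereas Dcn is lower in the latter, at 645 and 52.7 CPM.

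Acinar-rich spots bore on these values. They held 39.4% of the UMIs in the KPC-shZEB1-labelled library and 4.09% in the other, and without them 4 genes were called higher and 0 lower, where 3.89% and 1.72% of all genes were. The genes called higher outside acinar-rich spots were Fap (28.6 and 13.5 CPM, log2 ratio 1.09), Dcn (195 and 80.9 CPM, 1.27), Lum (108 and 51.6 CPM, 1.07) and Pdgfra (47.1 and 20.5 CPM, 1.20). Cxcl12 stood at 24.5 and 13.6 CPM (0.85). Tagln and Fn1 were no longer called, with ratios of -0.43 and -0.42, and Acta2 turned to 0.31. Postn stood at -0.12 and Il6 at 0.15, and the interval of Il6, -0.08 to 0.38, included 0. The median of the 10 genes was 0.58 and that of all genes -0.01.

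Within acinar-rich tissue itself, all 10 genes had a ratio below 0, but so did the median gene, at -1.02. Of the 10 genes, 9 passed the filter of 100 UMIs over both libraries, and 7 of these 9 were called lower there, where 51.2% of genes passing it were, and 0 higher, where 0.495% were. Il6, with 42 and 31 UMIs, did not pass, and its ratio was -2.54. Cxcl12 showed the widest gap, with 9.78 CPM in the acinar-rich spots labelled KPC-shZEB1 and 91.0 CPM in those labelled KPC-shV (-3.22, -3.38 to -3.05). Dcn stood at 117 and 379 CPM (-1.70), Pdgfra at 16.5 and 62.6 CPM (-1.92) and Fn1 at 90.4 and 345 CPM (-1.93), whereas Acta2 stood at 18.7 and 31.3 CPM (-0.74). In the KPC-shV-labelled library, the acinar-rich spots thus had as much Dcn as its fibroblast-rich spots, where the level was also 379 CPM, and more Cxcl12, 91.0 against 64.9 CPM. The collagens differed in the same direction, with Col3a1 at 880 CPM in the acinar-rich spots labelled KPC-shZEB1 and 4344 CPM in those labelled KPC-shV. The 768 and 282 acinar-rich spots were unlike in depth, with medians of 65705 and 23449 UMIs. Of them, 19 and 117 had under 20000 UMIs. How much other tissue was mixed into each set was not tested.

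To compare the libraries in collagen-rich tissue, the levels were read in fibroblast-rich spots. Collagen content was not equal in them. The summed level of the 3 collagens was 20924 and 24849 CPM (log2 ratio -0.25), beside 7680 and 6274 CPM (0.29) outside acinar-rich spots. There the KPC-shZEB1-labelled library had less Acta2, Tagln and Fn1 and more Dcn, Lum, Fap and Pdgfra, but no difference reached 2-fold, and Acta2 took the opposite sign under 3 of 12 other settings and Tagln under 1. Of these 12 settings, 1 was a minimum on spot content that every fibroblast-rich spot already met, so it could not change a ratio. Of the 10 genes, 0 were called higher and 0 lower, where 2.72% and 2.63% of 13032 genes were. The median of the 10 genes was 0.19 and that of all genes -0.08. The collagens used to choose the spots stood at -0.13 (Col1a1), -0.83 (Col1a2) and -0.01 (Col3a1), so that a log2 ratio of -0.83 also occurred among genes held at 1 threshold in their sum.

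Among the myofibroblast genes in fibroblast-rich spots, Tagln showed the largest difference, with 381 CPM in the KPC-shZEB1-labelled library and 637 CPM in the KPC-shV-labelled one (log2 ratio -0.74, -0.78 to -0.70). The median over spots was 282 CPM against 486 CPM, with the highest spots at 2458 and 2953 CPM and the lowest at 0 in both, so the spots of the libraries overlapped widely. Acta2 measured 374 and 469 CPM (-0.33, -0.37 to -0.29), with medians over spots of 240 and 310 CPM. Postn measured 95.6 and 84.8 CPM (0.17, 0.08 to 0.26), whereas its medians over spots, 50.9 and 64.1 CPM, ran the other way. The direction of Postn thus rested on its highest spots, and without the 5% of spots highest in it the ratio was -0.23.

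Markers of smooth muscle and pericytes were lower in the fibroblast-rich spots labelled KPC-shZEB1, as were Acta2 and Tagln. Of 5 such markers, 3 were called lower there and 0 higher, where 2.63% and 2.72% of all genes were. The summed level of the 5 markers was 160 CPM against 312 CPM. Rgs5 of pericytes stood at 75.2 and 150 CPM, Des (desmin) at 40.2 and 81.2 CPM and Myh11 (smooth muscle myosin) at 8.59 and 24.8 CPM. Without the 10% of spots highest in these markers, which left 302 and 495 fibroblast-rich spots, Tagln stood at -0.45, Acta2 turned to 0.13 and Postn stood at 0.54. In other tumor spots the summed markers were also lower, at 54.2 and 86.2 CPM (-0.67), whereas Acta2 stood at 0.45 there and Tagln at -0.60.

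Other cell types also differed between the fibroblast-rich spots of the libraries, where 2.72% of all genes were called higher and 2.63% lower. All 3 T cell markers and all 4 B cell markers were called higher in the KPC-shZEB1-labelled library. Their summed levels were 105 against 39.9 CPM and 99.97 against 25.2 CPM. Of 4 adipocyte markers 3 were called higher, but the 4 summed to only 12.1 against 4.44 CPM. Single genes that should be absent ran from 0.85 to 3.79 CPM in the fibroblast-rich spots labelled KPC-shV. No difference in adipocytes is therefore read. Of 5 endothelial markers 1 was called lower (198 and 304 CPM summed), as was 1 of 5 mesothelial markers (99.0 and 199.8 CPM). None of 5 epithelial, 5 macrophage and 4 neutrophil markers was called. Of 22 acinar genes, 11 were called higher, at 16428 against 10407 CPM. The part of these cell types in the ratios of the 10 genes was not tested.

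The matrix and surface genes differed in opposite directions in fibroblast-rich spots. Dcn measured 645 CPM in the KPC-shZEB1-labelled library and 379 CPM in the KPC-shV-labelled one (0.76, 0.73 to 0.80), with medians over spots of 572 and 358 CPM. Lum measured 334 and 192 CPM (0.80, 0.75 to 0.85), and its medians over spots were 280 and 160 CPM. Fap measured 48.3 and 32.3 CPM (0.58, 0.44 to 0.72). Fn1 measured 1968 and 2766 CPM (-0.49, -0.51 to -0.47), with medians over spots of 1527 and 2383 CPM. Fap, Dcn and Lum were above 0 and Fn1 below 0 under each of the 12 other settings tried for these spots. Of these settings, 1 removed no spot and could not have changed a sign.

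Of the inflammatory genes in fibroblast-rich spots, Pdgfra measured 118 and 84.3 CPM (0.48, 0.40 to 0.57), with medians over spots of 106 and 67.8 CPM. Cxcl12 measured 74.9 and 64.9 CPM (0.21, 0.11 to 0.31), but its medians over spots were 39.9 and 44.7 CPM, and 2 of the 12 other settings gave a ratio below 0. Il6 rested on 140 and 228 UMIs, or 6.83 and 9.20 CPM (-0.43, -0.74 to -0.12). Both levels of Il6 lay above that of Omp in these spots, 2.83 and 3.79 CPM. Between the libraries, Pdgfra was thus higher with the label KPC-shZEB1, and Cxcl12 differed least of the 3 genes. Il6 was lower by level, but 1 of the 12 other settings gave a ratio above 0 (0.32). The shares of spots with an Il6 UMI, given below, overlapped in their intervals.

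**Figure D2:**
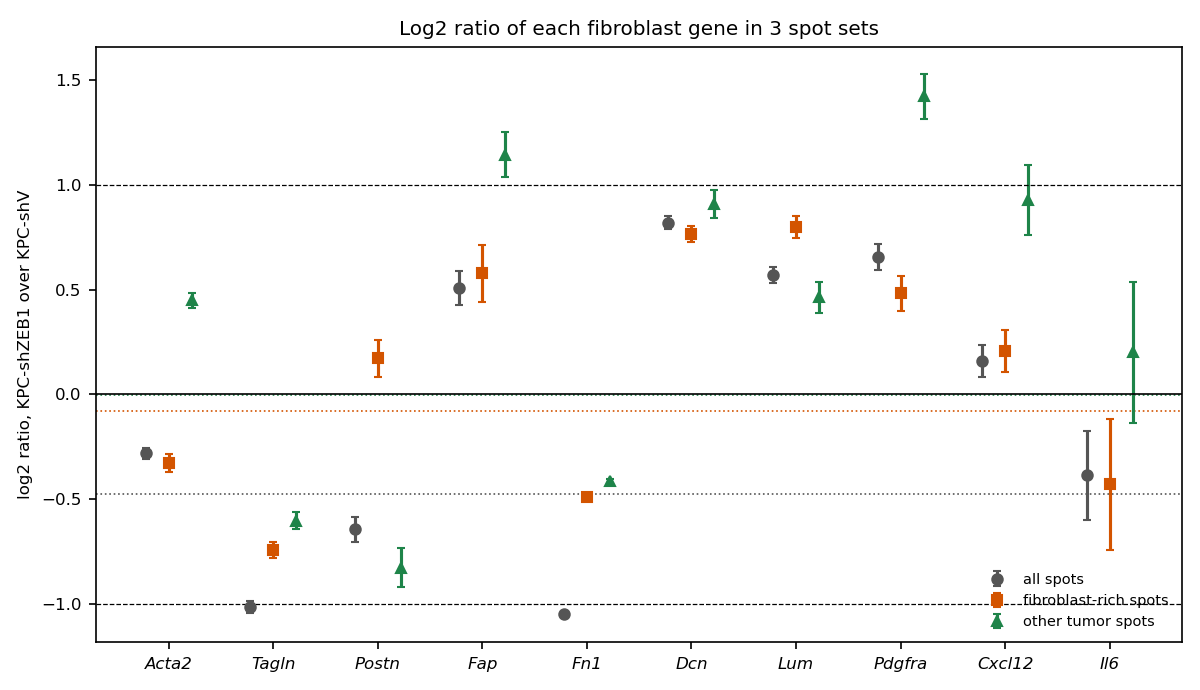
Log2 ratio of each gene, KPC-shZEB1 over KPC-shV, in all spots (grey circles), fibroblast-rich spots (orange squares) and other tumor spots (green triangles), with exact conditional intervals for counting error. Dotted lines are the median gene of each comparison and dashed lines are the 2-fold limits. Acta2 sits at -0.33 in fibroblast-rich spots and 0.45 in other tumor spots, and Postn at 0.17 and -0.83.

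Shares of spots with a UMI were compared after each spot was thinned to 5000 UMIs, which left out 1 fibroblast-rich spot labelled KPC-shZEB1 and 48 labelled KPC-shV. Of the fibroblast-rich spots, 63.9% (59.0% to 68.6%, exact binomial) labelled KPC-shZEB1 and 83.9% (81.0% to 86.5%) labelled KPC-shV had a Tagln UMI, and 97.1% and 91.4% had one before thinning. For Lum the shares were 69.5% (64.8% to 73.9%) and 58.2% (54.5% to 61.8%), and 96.6% and 86.2% before thinning. For Fap they were 19.5% (15.8% to 23.7%) and 12.9% (10.5% to 15.5%), and 74.5% and 53.8% before thinning. At equal depth, Tagln was thus found in a smaller share of the fibroblast-rich spots labelled KPC-shZEB1, and Lum and Fap in a larger one. For Tagln the shares before thinning ran the other way. The binomial intervals take spots as independent, which spots of 1 section are not, so they test no difference between the libraries. Cxcl12 was found in 29.3% (24.9% to 33.9%) and 28.0% (24.7% to 31.4%) of these spots, a difference within the intervals, and in 70.6% and 68.8% before thinning. Il6 was found in 3.66% (2.06% to 5.96%) and 4.85% (3.40% to 6.68%), where the highest of the 12 genes that should be absent reached 1.22% and 1.66%. Before thinning, 26.5% and 24.2% of the spots had an Il6 UMI. In acinar-rich spots, an Il6 UMI was found in 0.26% and 0.75% after thinning, 2 spots in each library, and in 5.08% and 9.57% before. By level, Il6 stood there at 0.76 and 4.41 CPM (2.99 to 6.26 for the latter), beside 1.76 and 1.53 CPM in other tumor spots. Acinar-rich spots were thus no low background for Il6 in the KPC-shV-labelled library.

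The balance of the programs was read as the UMIs of Pdgfra, Cxcl12 and Il6 per UMI of Acta2, Tagln and Postn, a ratio that does not depend on the total count of a library. Its size depends on the probes of the 6 genes, so it is read only as a difference between sets of spots. In fibroblast-rich spots it was 0.235 in the KPC-shZEB1-labelled library and 0.133 in the KPC-shV-labelled one, a log2 difference of 0.82 (0.75 to 0.89). The difference was 1.31 in other tumor spots and -1.56 in acinar-rich spots, where the ratios were 0.661 and 1.95. The acinar-rich spots of the libraries were unlike in depth, as given above. By spot, the median log2 ratio was -1.81 over the fibroblast-rich spots labelled KPC-shZEB1 and -2.45 over those labelled KPC-shV. In fibroblast-rich spots the difference kept its sign under the 11 other settings tried, between 0.37 and 1.07. Of these 11, 1 set a minimum on spot content that every fibroblast-rich spot already met. It removed no spot, returned 0.82 again and could not have changed the sign. Without Pdgfra and Tagln, the gene with the most UMIs of each side, it was 0.38.

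The depth of the fibroblast-rich spots differed between the libraries. Their median was 47266 UMIs in the KPC-shZEB1-labelled library and 28256 UMIs in the KPC-shV-labelled one, and 26 and 278 of them, respectively, had under 20000 UMIs. A setting that kept only spots of at least 20000 UMIs was chosen after the values were seen. Under it, Dcn stood at 1.23 and Lum at 1.01, both then called higher, and Tagln at -0.78. With the mean over spots of their CPM instead, the ratios shrank, to 0.29 for Dcn, 0.53 for Lum and 0.17 for Pdgfra.

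Fibroblast-rich spots were next set against other tumor spots of the same library, to see how far each gene follows the collagen-rich stroma. In this comparison 11.6% of genes in the KPC-shZEB1-labelled library and 14.3% in the other were at least 2-fold higher in fibroblast-rich spots, and 9 of the 10 genes were in both libraries. Dcn stood at 645 against 52.7 CPM in the KPC-shZEB1-labelled library and at 379 against 28.1 CPM in the KPC-shV-labelled one, which is 12.2-fold and 13.5-fold. Cxcl12 was 8.75-fold and 14.4-fold higher in fibroblast-rich spots, Lum 9.05-fold and 7.17-fold, and Pdgfra 4.76-fold and 9.14-fold. Of all Dcn UMIs outside acinar-rich spots, 79.5% and 70.5% came from fibroblast-rich spots, which held 24.1% and 15.0% of all UMIs there.

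The contractile genes and Fap rose by smaller folds in fibroblast-rich spots. Tagln was 3.75-fold and 4.13-fold higher in fibroblast-rich spots, Acta2 2.24-fold and 3.83-fold, and Fap 2.15-fold and 3.19-fold. Postn was 5.27-fold higher with the label KPC-shZEB1 and 2.63-fold with the label KPC-shV, the one myofibroblast gene whose gradient was steeper in the KPC-shZEB1-labelled library. Fn1 was nearly even, at 1.04-fold and 1.10-fold. In other tumor spots, Fap (22.4 and 10.1 CPM, log2 ratio 1.15) and Pdgfra (24.7 and 9.22 CPM, 1.42) were called higher in the KPC-shZEB1-labelled library, where 4.44% of genes were, and 0 genes were called lower, where 1.96% were. Acta2 measured 167 and 122 CPM in those spots (0.45), Postn 18.2 and 32.2 CPM (-0.83), Tagln 102 and 155 CPM (-0.60) and Cxcl12 8.56 and 4.50 CPM (0.93).

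Along the whole range of collagen, the spots outside acinar-rich tissue were split in each library into 10 groups of equal size by their collagen level. Dcn climbed at every step, from 12.0 to 938 CPM in the KPC-shZEB1-labelled library and from 6.83 to 876 CPM in the KPC-shV-labelled one. Lum ran from 7.60 to 528 CPM and from 5.41 to 380 CPM. Pdgfra ran from 9.50 to 153 CPM and from 2.35 to 164 CPM. By group number, the libraries thus differed in group 1 and were close in group 10, which was not read at equal collagen. In group 9, at 18175 and 20636 CPM of collagen, Pdgfra stood at 114 and 65.2 CPM. Cxcl12 started at 2.32 and 2.42 CPM and ended at 93.4 and 149 CPM. In its group of spots highest in collagen the KPC-shV-labelled library thus had more Cxcl12, whereas the KPC-shZEB1-labelled library had more in the middle of the range, with 25.3 against 6.62 CPM in group 7. The groups were made in each library apart, so groups of the same number differed in collagen. Its level was 733 and 388 CPM in group 1, 8557 and 5712 CPM in group 7, and 31018 and 43789 CPM in group 10. The median depth of group 10 was 46035 and 15705 UMIs per spot.

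By group number, Acta2 crossed over in the same way, from 68.1 against 46.5 CPM in the group lowest in collagen to 445 against 656 CPM in the highest. The low end was not read at equal collagen. Group 2 labelled KPC-shV, at 752 CPM of collagen beside 733 CPM in group 1 labelled KPC-shZEB1, had Acta2 at 74.1 CPM. In the middle, group 5 labelled KPC-shZEB1 (3537 CPM of collagen) had 211 CPM, and group 6 labelled KPC-shV (3400 CPM) had 135 CPM. Tagln ran from 32.1 to 496 CPM and from 53.4 to 835 CPM. Postn ran from 5.91 to 125 CPM and from 7.40 to 110 CPM. Fn1 changed by 1.30-fold and 1.32-fold from the lowest to the highest group, and its highest level was in groups 7 and 5, respectively. Il6 was at or under 2 CPM in groups 1 to 5 of both libraries and reached 7.08 and 14.1 CPM in group 10.

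**Figure D3:**
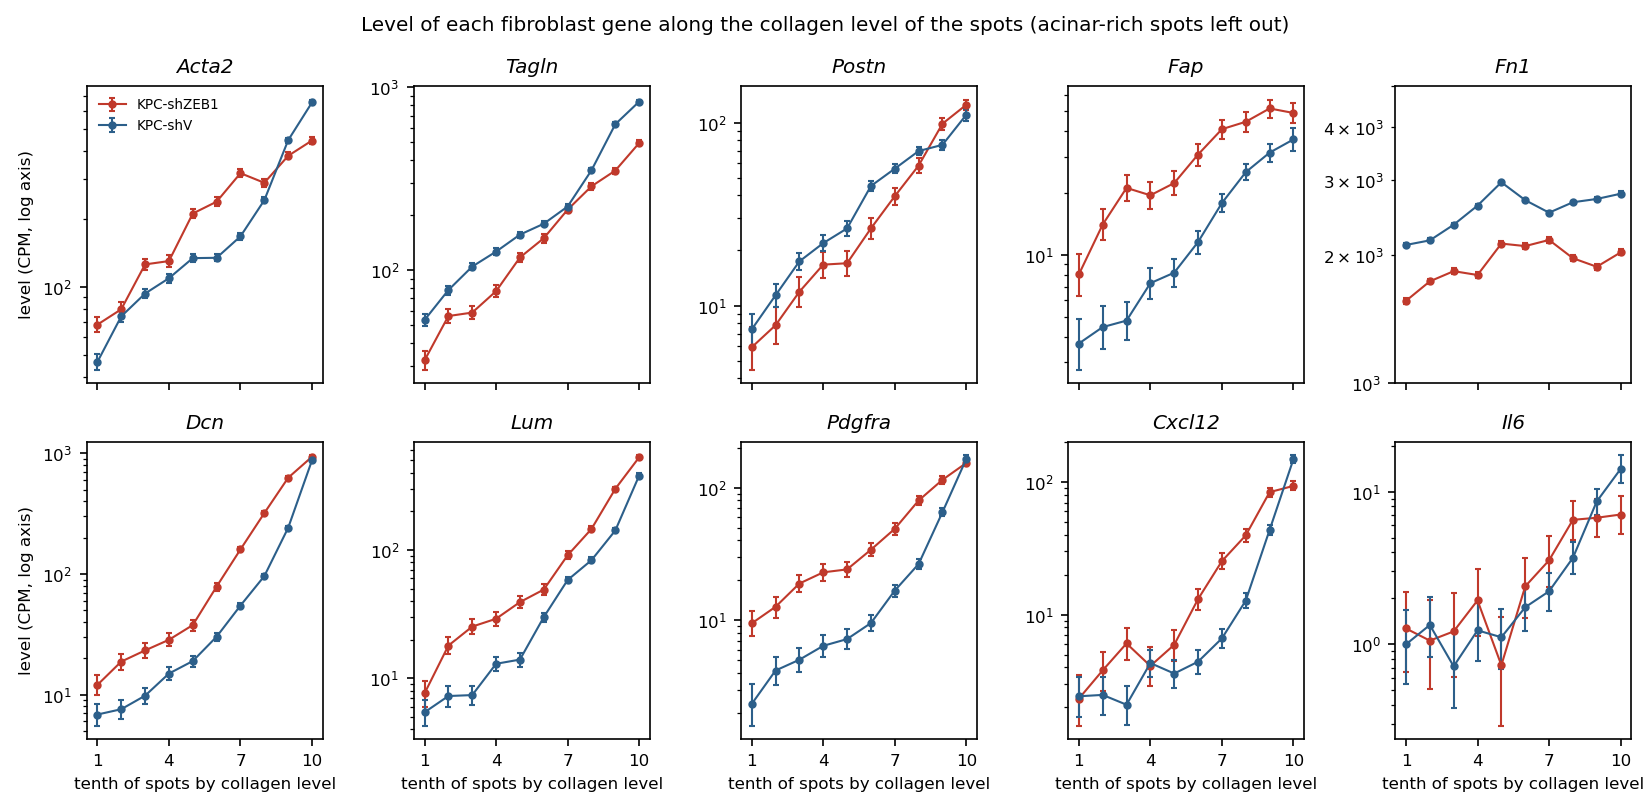
Level of each gene in CPM (log axis, 1 scale per panel) in 10 groups of spots ordered by the summed level of Col1a1, Col1a2 and Col3a1 within each library, acinar-rich spots left out. Red is KPC-shZEB1, blue is KPC-shV, and bars are exact Poisson intervals for counting error. Dcn climbs from 12.0 to 938 CPM and from 6.83 to 876 CPM, whereas Fn1 differs by 1.30-fold and 1.32-fold between the end groups.

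The tissue around the genes was described by classes of spots, each the 10% of spots outside acinar-rich tissue with the highest summed level of a marker list, against the other spots of that library. The classes overlapped, and 71.7% of the endothelial class labelled KPC-shZEB1 and 71.6% of the KPC-shV-labelled one were also fibroblast-rich. The inflammatory genes were high in the B cell and macrophage classes of both libraries, but not they alone. With the label KPC-shZEB1, Dcn stood at log2 ratios of 2.86 and 2.37 in these classes and Lum at 2.11 and 1.76. Pdgfra stood at 1.69 and 1.49 there. In the macrophage class labelled KPC-shV, Dcn stood at 3.24 and Lum at 2.75. Cxcl12 was highest in the B cell class of the KPC-shZEB1-labelled library, at 183 against 14.2 CPM (log2 ratio 3.69), above its collagen class (2.34). In the KPC-shV-labelled library it was highest in the collagen class, at 149 against 7.99 CPM (4.22), followed by the macrophage class (3.58), and its B cell class stood at 3.02. Of these classes, 79.3% and 70.3% of the B cell spots were fibroblast-rich, respectively.

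Acta2 and Postn followed those classes less in the KPC-shZEB1-labelled library than in the other. There Acta2 stood at 0.11 in the B cell class, 0.39 in the macrophage class and 0.28 in the smooth muscle and pericyte class, and Postn stood at 0.01 in the B cell class. Tagln stood at 0.84 in the B cell class and 1.21 in the macrophage class. In the KPC-shV-labelled library the same classes had more of these genes, with Acta2 at 1.25, 2.03 and 2.02, Postn at 0.87 in the B cell class and Tagln at 1.30 and 2.13. The macrophage class of that library was fibroblast-rich in 96.9% of its spots, against 77.2% in the other library. Il6 was highest in the macrophage class labelled KPC-shZEB1, at 9.51 against 2.41 CPM, and in the collagen class labelled KPC-shV.

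All 10 genes were lower in the epithelial class than in other spots, in both libraries. Dcn showed the largest gap there, at 16.5 against 219 CPM (-3.73) and 10.0 against 87.9 CPM (-3.13). In the hypoxic class Dcn also stood low, at -2.32 and -2.11, and Cxcl12 at -2.44 and -2.13, whereas Fn1 stood at 0.10 and 0.11. Fn1 kept within 1 log2 unit of 0 in all 11 classes of both libraries, and was lowest at -0.94 in the mesothelial class labelled KPC-shV and -0.87 in the B cell class labelled KPC-shZEB1. In the class picked by mesothelial genes, Postn stood at -1.90 in the KPC-shZEB1-labelled library and at 1.37 in the KPC-shV-labelled one, and Lum at -1.99 and 1.28. Of the spots of this class, 4.14% and 18.0% were fibroblast-rich. The summed mesothelial genes measured 332 and 293 CPM in other tumor spots and 99.0 and 199.8 CPM in fibroblast-rich spots. Whether the class covers the same kind of tissue in both libraries was not tested.

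**Figure D4:**
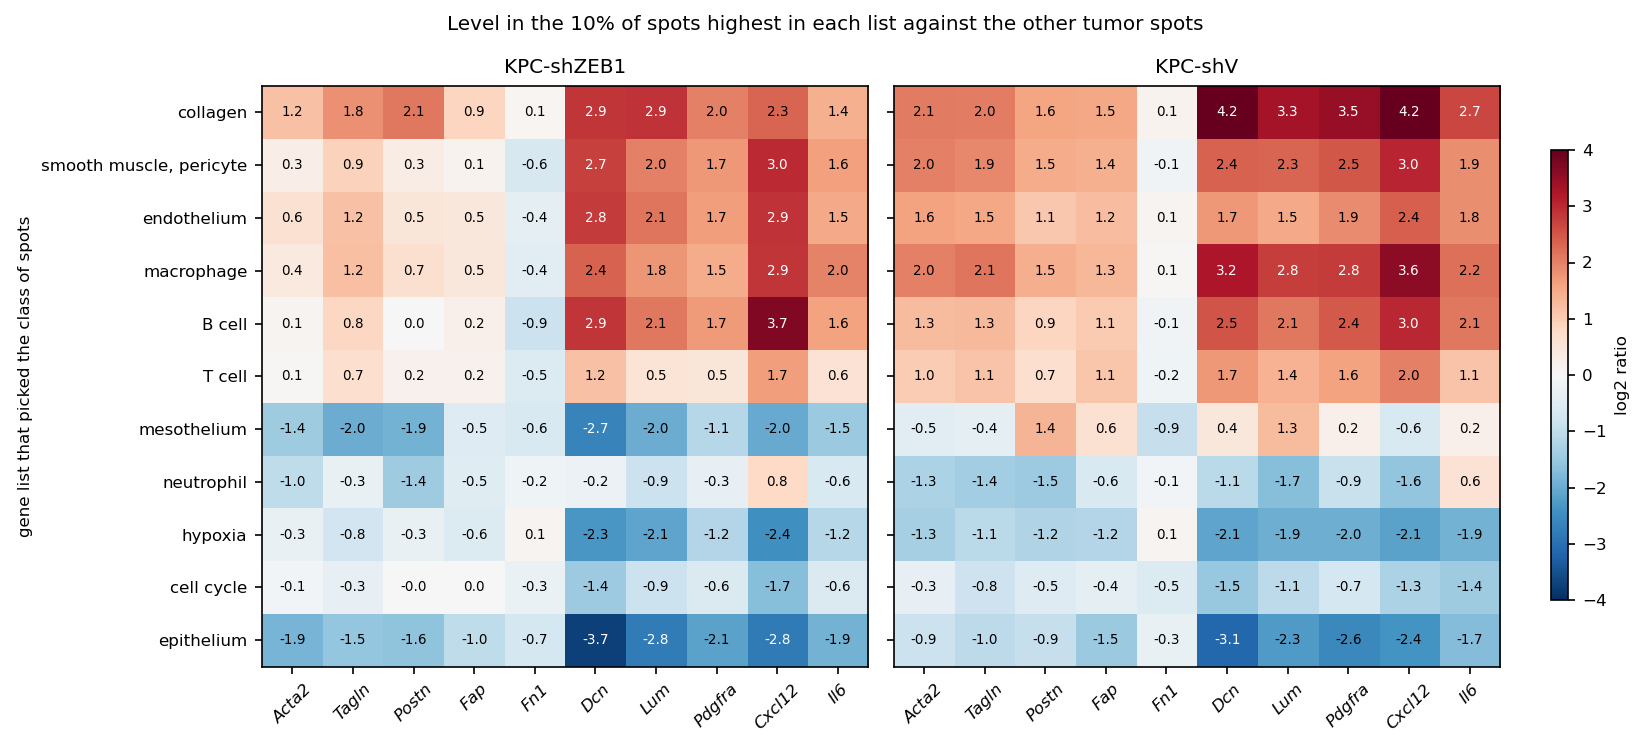
Log2 ratio of the level of each gene (columns) in the 10% of spots highest in a marker list (rows) over the other spots outside acinar-rich tissue, for the libraries labelled KPC-shZEB1 (left) and KPC-shV (right). Red is higher and blue lower in the class. Cxcl12 peaks at 3.69 in the B cell class on the left and at 4.22 in the collagen class on the right, and the Fn1 column runs from -0.94 to 0.13.

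Over single spots the genes fell into blocks, described by Pearson's r of log2(CPM / 100 + 1) over 1452 and 3270 spots outside acinar-rich tissue. These spots share a section, a library and their depth, so the values are descriptions. Dcn and Lum had an r of 0.85 in the KPC-shZEB1-labelled library and 0.80 in the KPC-shV-labelled one, Dcn and Pdgfra 0.72 and 0.73, and Dcn and Cxcl12 0.71 and 0.67. Acta2 and Tagln had an r of 0.54 and 0.75. Postn, also a myofibroblast gene, had 0.42 and 0.35 with Acta2, 0.46 and 0.40 with Tagln and 0.39 and 0.46 with Lum. In the KPC-shV-labelled library it was thus not closer to the contractile pair than to Lum. Between the blocks, Acta2 and Dcn had 0.25 and 0.34, and within fibroblast-rich spots alone -0.17 and -0.18. Tagln and Dcn likewise went from 0.42 and 0.39 to -0.16 and -0.24 when only fibroblast-rich spots were counted. Pairs with Lum lay near 0 in fibroblast-rich spots, at 0.10 and 0.0002 for Acta2 and 0.03 and -0.04 for Tagln. Their pairs with Pdgfra and Cxcl12 lay between -0.12 and -0.02 there. Fibroblast-rich spots were chosen by collagen, which these genes follow, and such a choice can by itself lower r. Its part in the changes of sign was not tested. Fn1 and Dcn had -0.21 and 0.05 over all spots outside acinar-rich tissue, and -0.51 and 0.13 over the fibroblast-rich ones.

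**Figure D5:**
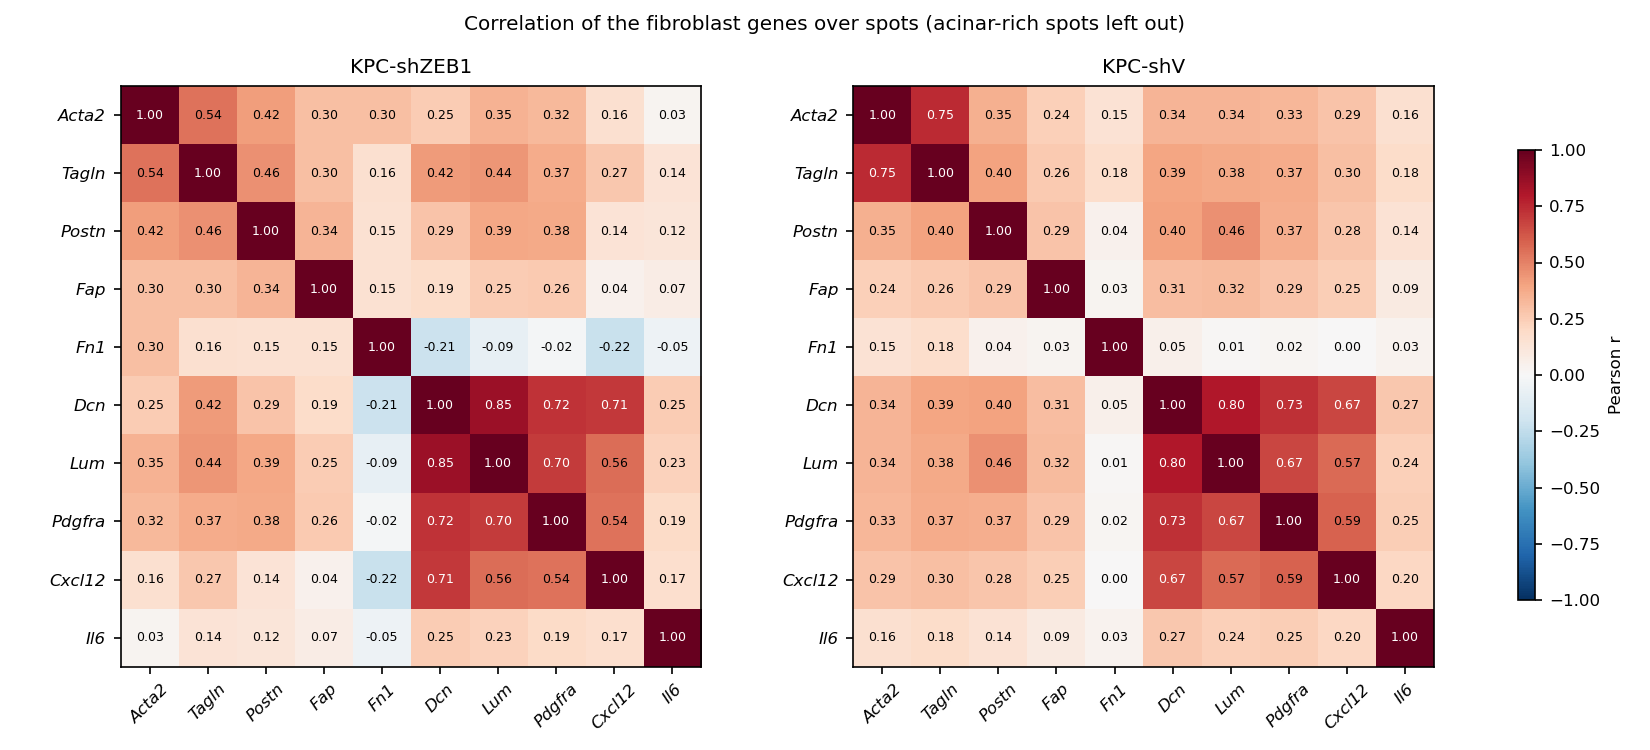
Pearson's r between the genes over the spots outside acinar-rich tissue, for the libraries labelled KPC-shZEB1 (left, 1452 spots) and KPC-shV (right, 3270 spots). Dcn, Lum, Pdgfra and Cxcl12 form a block in both, with r between 0.54 and 0.85, and Acta2 and Tagln form a pair at 0.54 and 0.75.

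Among 9683 genes with at least 1000 UMIs in each library, those whose pattern was most like that of each gene were taken by the lower r of the 2 libraries. For Acta2 it was Myl9, a myosin light chain of contractile cells (0.61 and 0.65). For Tagln it was Sparc, a matricellular protein that binds collagen (0.72 and 0.68), which was also nearest to Postn (0.53 and 0.51) and to Fap (0.43 and 0.39). Dcn was nearest to Serpina3n, a secreted protease inhibitor (0.89 and 0.81), followed by Svep1 and Cpxm1, and Serpina3n was also nearest to Cxcl12 (0.74 and 0.71). Lum and Pdgfra were nearest to Dcn itself. Fn1 was nearest to Cald1, an actin-binding protein (0.60 and 0.48), to the matricellular gene Thbs1 and to the laminin gene Lamb1. Collagens of the spot rule were among the 3 nearest genes of Tagln, Postn and Fap only. For Il6 the highest values were weak, at 0.28 and 0.27 with Cilp.

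Further genes of the same programs were read in fibroblast-rich spots by their lists. In these spots 2.72% of all genes were called higher and 2.63% lower. Of 15 other myofibroblast genes, 2 were called higher and 3 lower in the KPC-shZEB1-labelled library, with 11 below 0 and a median of -0.41, beside -0.08 for all genes. The 3 lower ones were Actg2, an enteric smooth muscle actin (20.9 and 89.8 CPM, log2 ratio -2.10), Ltbp2, which binds matrix fibrils (-1.17), and Tnc, the matrix protein tenascin C (213 and 440 CPM, -1.04). The 2 higher ones were Lrrc15, a surface marker of myofibroblasts in cancer (35.2 and 8.35 CPM, 2.08), and Hopx (26.9 and 12.7 CPM, 1.08). The myofibroblast list was thus mixed in direction, since Lrrc15 and Tnc both belong to it.

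Of 19 other inflammatory fibroblast genes, 18 were in the files, of which 4 were called higher and 2 lower, with a median of 0.15. Higher were the complement component C3 (2882 and 1257 CPM, 1.20), Dpt, the matrix protein dermatopontin (190 and 83.5 CPM, 1.19), the alarmin Il33 (120 and 55.7 CPM, 1.10) and Clec3b, which encodes tetranectin (37.7 and 18.1 CPM, 1.06). Lower were the neutrophil chemokine Cxcl1 (13.9 and 34.8 CPM, -1.32) and the cytokine Lif (9.76 and 22.8 CPM, -1.22). All 6 genes of antigen-presenting fibroblasts, most of which leukocytes also express, were above 0 and 1 was called higher, Slpi, a secreted protease inhibitor that epithelial cells also make (1407 and 207 CPM, 2.76), with a list median of 0.30. Of 14 broad fibroblast genes, 2 were called higher, S100a4 (1.25) and Fbln1 (1.05), and 1 lower, the collagen cross-linking enzyme Lox (-1.16).

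Receptors and ligands that pair with the 10 genes were also read in fibroblast-rich spots. Of 14 such genes, 1 was called higher and 1 lower, where 2.72% and 2.63% of all genes were, counts too small to read anything about the list. Both are ligands of platelet-derived growth factor receptors. Pdgfc measured 66.5 CPM in the KPC-shZEB1-labelled library and 32.5 CPM in the KPC-shV-labelled one (1.04), and Pdgfa 135 and 301 CPM (-1.15). Cxcr4, the receptor of CXCL12, measured 89.0 and 59.9 CPM (0.57), and Ackr3, its scavenging receptor, 30.9 and 36.7 CPM (-0.25). The interleukin 6 receptor genes Il6ra and Il6st measured 66.8 and 77.1 CPM (-0.21) and 242 and 201 CPM (0.27). Itga5, the integrin chain that binds fibronectin, measured 161 and 211 CPM (-0.39), and Sdc4, a proteoglycan that also binds it, 423 and 773 CPM (-0.87).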

How the data were processed

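Spatial transcriptomics of 2 libraries was used, 1 per group. Per the labels, the authors made Visium CytAssist libraries from probes and ran Space Ranger 2.0.1 on mm10. What they deposited is the untransformed UMI count of each gene in each spot over tissue. Probes read a fixed part of each transcript, so levels were not ranked between genes, except that Il6 was set against genes that these tumors should lack, as a rough background that takes the probes as alike. From the counts, CPM, log2 ratios and exact intervals were computed in Python 3.11.15 with numpy 2.4.6 and scipy 1.17.1, and figures were drawn with matplotlib 3.10.9. Genes needed at least 100 UMIs over both libraries to enter the background of a comparison. Genes of the marker lists were called without this limit. The acinar list held 23 genes, of which 22 are in the feature list used. Doublets were not called, since spots are regions. Positions came from GENCODE M21 and promoters from RefSeq. On simulated data for all 19465 genes, 200 of 200 changed genes in the comparison of KPC-shZEB1 with KPC-shV came out in the right direction, and the true value lay within 95.6% of intervals. The simulation drew Poisson counts from a shared profile, without variation in tissue or between tumors. It therefore checks the computation and says nothing about such variation. The named genes are the 10 genes, Zeb1, the 3 nearest genes of each and a few genes of each list. The genes, the lists and these rules were chosen with earlier results of these data known. Alternatives were other acinar limits, other scalings, other ways of choosing fibroblast-rich spots, spot filters and the mean over spots.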

Additional observations from a re-analysis of the deposited data

Results flagged for a closer look

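Acta2 differed in opposite directions in 2 kinds of tissue of the same pair of libraries. With KPC-shZEB1 in the numerator, its log2 ratio was -0.33 in fibroblast-rich spots and 0.45 in other tumor spots. Postn differed in opposite directions the other way around, at 0.17 in fibroblast-rich spots and -0.83 in other tumor spots. With 1 library per group, the difference between the kinds of tissue was not tested for either gene. When fibroblast-rich spots were chosen by Col6a1, Col6a2 and Col6a3, Acta2 stood at 0.23 and Postn at -0.19 in them, both with the opposite sign to that in the fibroblast-rich spots above. Other tumor spots were not read again under that choice.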

How the results depend on the processing

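No paired analysis was possible because each group has 1 library. Over all spots, the number of genes called higher went from 0 to 4 without acinar-rich spots (over 20% or over 40% of UMIs), 5 at over 5%, 2 with acinar genes out of the total and 3 with median-of-ratios scaling, and the number called lower went from 2 to 0 under each of these and with the mean over spots of their CPM, but to 3 without the 5% of spots highest in the gene, when Postn joined at -1.07. In fibroblast-rich spots, the number higher went from 0 to 2 with the upper 25% of each library apart, 4 when spots were chosen by Fbn1, Pdgfrb, Mfap5 and Fbln2 (109 and 1072 spots) and 2 with at least 20000 UMIs per spot (chosen after seeing the data), and the number lower went to 1 (Il6, -1.14) in the upper 10% of spots. The balance of 0.82 was 0.95 and 0.71 with acinar limits of 5% and 40%, 0.37 in the upper 10%, 0.92 with each library apart, 0.61 with Col6 genes, 0.62 with the genes other than collagens, 0.43 without spots high in smooth muscle and pericyte genes, 1.07 with at least 20000 UMIs, 0.55 with the mean over spots and 0.38 without Pdgfra and Tagln. Opposite signs occurred over all spots for Acta2 and Il6 (5 of 8 settings each) and Cxcl12 (2 of 8), and in fibroblast-rich spots for Postn (4 of 12), Acta2 (3), Cxcl12 (2), Tagln (1) and Il6 (1). Fap, Fn1, Dcn, Lum and Pdgfra kept their sign under all of these settings, but not their size. In fibroblast-rich spots Dcn ran from 0.29 to 1.71, Lum from 0.53 to 1.83 and Pdgfra from 0.17 to 1.23. In fibroblast-rich spots, 1 of the 12 settings removed no spot. It left the balance at 0.82 and every ratio as it was, and could not have changed a sign. Over all spots, the same setting, a minimum on the genes and UMIs of a spot, left the ratios as printed. With classes of 5% or 20% of spots, 7 of 220 pairs of gene and class changed sign. Depth limits Il6 most, with 296 and 474 UMIs.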
